A study of Mus musculus with 6 samples.

Results

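The genes described here are 10 effectors of the type I interferon response: Ifit1, Ifit2, Ifit3, Isg15, Usp18, Rsad2, Mx1, Mx2, Eif2ak2 and Adar. They were taken by name, as every probe set of the array whose platform annotation gives one of these symbols alone. This gave 11 probe sets, 1 each for 9 genes and a pair for Adar, among 8251 genes with a symbol on the array. The material was the peritoneal exudate of mice with the strain label C57BL/6, and the labels also call these cells peritoneal macrophages. Stimulated cells received lipopolysaccharide (LPS) with interferon-γ, and came from mice lacking NF-IL6 (KO), from the NF-IL6 knock-in line labelled KI(LAP) (KI) and from wild-type mice (WT). Untreated cells of the same 3 genotypes were their controls. NF-IL6 is another name of the transcription factor C/EBPβ (gene Cebpb), whose activator isoform is known as LAP. A stimulation time of 12 h was labelled for KO and KI cells but none for WT cells, so that a difference in time and a difference in genotype cannot be told apart where stimulated WT cells are compared. Each of the 6 groups had 1 array and no replicate, and it is not labelled whether cells of several animals were pooled.

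Type I interferons are released by cells that sense microbial products and act back on the same and neighbouring cells through a shared receptor. The signal of the receptor's kinases ends at interferon-stimulated response elements (ISREs), short sequences in the promoters of effector genes. LPS starts this loop in macrophages through TLR4, the adaptor TRIF, IRF3 and interferon-β, while interferon-γ has its own receptor and acts through a different element, the gamma-activated sequence (GAS). The 10 effectors act on viral RNA, on translation, on membranes and on the interferon signal itself.

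Promoter sequences are shown for the members whose start region holds an ISRE core, as background to the values that follow. Whether a match goes with the size of a gene's change was not tested. RefSeq promoters of assembly GRCm38.p6, running from 250 bases before to 50 bases after the start site, were matched by symbol for 7 of the 10 genes, with 10 start sites in all. Mx1, Mx2 and Usp18 were not matched. The ISRE core was searched on both strands as GAAA, any 2 bases and GAAA again, which reads TTTC, any 2 bases and TTTC on the other strand, and matches are in capitals. It was found at 5 of the 10 start sites, in 5 of the 7 genes, and in 3.44% of 32851 promoters of the same length. The 5 promoters, each written 5′ to 3′ on the gene's strand, are those of Ifit1 (chr19:34640639-34640938, plus strand), Ifit3 (chr19:34583279-34583578, plus strand), Isg15 (chr4:156200769-156201068, minus strand), Rsad2 (chr12:26456403-26456702, minus strand) and Eif2ak2 (chr17:78882523-78882822, minus strand).
Ifit1: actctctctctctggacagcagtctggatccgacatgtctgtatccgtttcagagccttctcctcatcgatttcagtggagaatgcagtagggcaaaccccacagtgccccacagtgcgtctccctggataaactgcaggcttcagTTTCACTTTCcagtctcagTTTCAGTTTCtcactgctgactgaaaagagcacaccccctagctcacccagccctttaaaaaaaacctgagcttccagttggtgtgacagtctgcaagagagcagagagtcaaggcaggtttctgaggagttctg
Ifit3: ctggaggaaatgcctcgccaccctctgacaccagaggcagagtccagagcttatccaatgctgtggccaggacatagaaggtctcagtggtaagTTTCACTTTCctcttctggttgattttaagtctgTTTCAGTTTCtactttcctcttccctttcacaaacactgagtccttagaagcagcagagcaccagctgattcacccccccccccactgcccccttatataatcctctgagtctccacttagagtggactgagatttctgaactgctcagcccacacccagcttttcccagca
Isg15: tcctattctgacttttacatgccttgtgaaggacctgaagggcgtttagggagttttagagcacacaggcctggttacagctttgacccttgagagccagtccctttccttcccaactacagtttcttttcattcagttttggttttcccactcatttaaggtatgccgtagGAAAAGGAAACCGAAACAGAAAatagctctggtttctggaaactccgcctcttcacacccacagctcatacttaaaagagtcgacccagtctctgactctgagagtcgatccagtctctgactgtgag
Rsad2: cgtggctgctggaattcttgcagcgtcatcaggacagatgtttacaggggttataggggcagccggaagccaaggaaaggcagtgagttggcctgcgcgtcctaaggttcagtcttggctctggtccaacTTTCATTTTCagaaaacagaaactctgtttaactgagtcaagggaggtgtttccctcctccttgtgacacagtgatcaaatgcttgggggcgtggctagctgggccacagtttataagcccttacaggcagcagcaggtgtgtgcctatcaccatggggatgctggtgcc
Eif2ak2: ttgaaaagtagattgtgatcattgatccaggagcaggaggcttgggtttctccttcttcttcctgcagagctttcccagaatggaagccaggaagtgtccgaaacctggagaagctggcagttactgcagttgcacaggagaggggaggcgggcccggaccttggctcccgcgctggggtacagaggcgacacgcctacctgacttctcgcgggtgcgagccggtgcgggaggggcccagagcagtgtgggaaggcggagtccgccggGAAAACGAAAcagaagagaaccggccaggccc

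With the start base counted as 0, the matches began at -104 and -85 in Ifit1, at -156 and -122 in Ifit3 and at -120 in Rsad2. Isg15 held 3 overlapping matches that began at -78, -72 and -66. The match of Eif2ak2 began at 18, inside the transcribed part. Neither start site of Ifit2 and none of the 3 of Adar held an exact match to the core in this window. The search allowed no mismatch. Start 3 of Adar holds GAAAGTGAAC, which departs from the core in its last base only. A GAS, searched as TTCNNNGAA, which reads the same on both strands, was found at 3 start sites, 1 each of Eif2ak2, Ifit2 and Adar, and in 8.3% of all promoters. A C/EBP motif, searched as TTGCNNAA on both strands, was found at 0 of the 10 member start sites and in 10.8% of all promoters. No match of one motif overlapped a match of another. A match describes letters in the reference sequence and not a bound site.

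**Figure D1:**
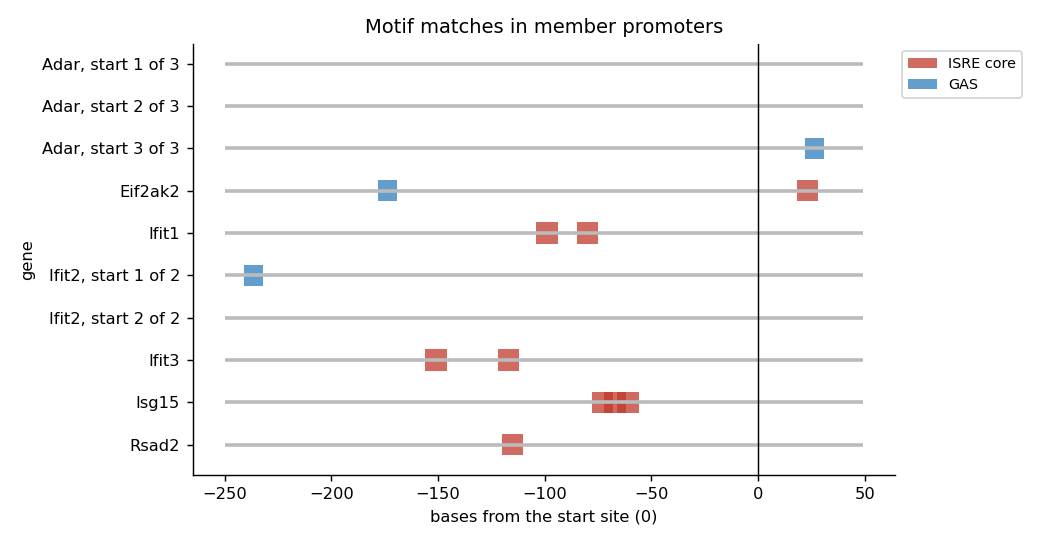
Matches to the ISRE core (red) and the GAS (blue) in the 10 start regions of 7 member genes, by distance in bases from the start site. The ISRE matches of Ifit1, Ifit3, Isg15 and Rsad2 lie before the start, between -156 and -57, and that of Eif2ak2 lies after it.

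The arrays were on 1 scale, with trimmed means between 500.3 and 500.4, and their median signals ran from 131 in stimulated KI cells to 185 in untreated WT cells. Signals under 98.2, their 40th percentile, were raised to this floor before log2 values were taken, and 9337 probe sets above it on at least 1 array were tested. All 11 member probe sets were among them, but Mx1, Mx2 and the Adar probe set 102741_at were above the floor only on stimulated arrays and so entered the test through the state in which they were high. Cebpb, the targeted gene, had signals of 59.0 in stimulated and 12.7 in untreated KO cells, both under the floor. Its signals were 5890 and 2284 in KI cells and 9329 and 5492 in WT cells. All 8 macrophage markers examined, among them Adgre1 and Csf1r, were above the floor on every array, and all 5 T and NK cell markers were below it on every array.

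After LPS with interferon-γ, 9 of the 11 member probe sets rose in the limma fit of stimulation over the 3 genotypes, and 0 fell, where 5.08% of all tested probe sets rose and 6.04% fell. The median log2 change of the 11 was 4.76, against -0.12 over all tested probe sets. On 10 of the 11 the stimulated arrays were all above the untreated arrays, which held for 10.3% of all probe sets. Changes of at least 1 on the log2 scale were seen for 10 of the 11 in KO cells (background 6.52%), for 11 in KI cells (background 5.58%) and for 8 in WT cells (background 8.55%), with changes that start at the floor counted at the floor. With no filter on dim probe sets, when 12422 were tested, 3 of the 11 passed, those of Ifit1, Ifit2 and Isg15, where 0.394% of all probe sets rose and 0.161% fell. The log2 changes of the members were the same in that setting. The error of the fit is the variation of the response between genotypes, not between replicate cultures. In bulk RNA such as this, more responding cells and more RNA per cell cannot be told apart.

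The Ifit genes encode tetratricopeptide-repeat proteins that bind viral RNA and hinder its translation, and the 3 lie near each other on mouse chromosome 19. Ifit1 (probe set 100981_at), which binds RNA ends that lack a host-type cap, had signals of 8138, 7594 and 5694 in stimulated KO, KI and WT cells, against 170, 20 and 106 in untreated cells. Its change over the genotypes was 5.87 on the log2 scale (SE 0.19, limma adjusted p = 0.000315). The states did not overlap, and Ifit1 was under the floor in untreated KI cells, in which it was at least 77.3-fold higher after stimulation.

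Ifit2 (103639_at) had signals of 9686, 8065 and 6170 in stimulated KO, KI and WT cells and 149, 38.3 and 58.0 in untreated ones, and its change was 6.12 (SE 0.16, limma adjusted p = 0.000175). Untreated KI and WT cells were under the floor, so that Ifit2 was at least 82.1-fold higher in stimulated KI and at least 62.8-fold higher in stimulated WT cells. Ifit3 (93956_at), which in human cells binds and stabilises IFIT1, had signals of 3998, 2714 and 1582 in stimulated KO, KI and WT cells, against 131, 9.60 and 62.6 in untreated cells. Its change was 4.58 (SE 0.25, limma adjusted p = 0.00146), the smallest of the family. Ifit3 has a near-identical neighbour, Ifit3b, and the files do not tell whether the probe set also reads it. All 3 Ifit genes had their highest stimulated and their highest untreated signal in KO cells.

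**Figure D2:**
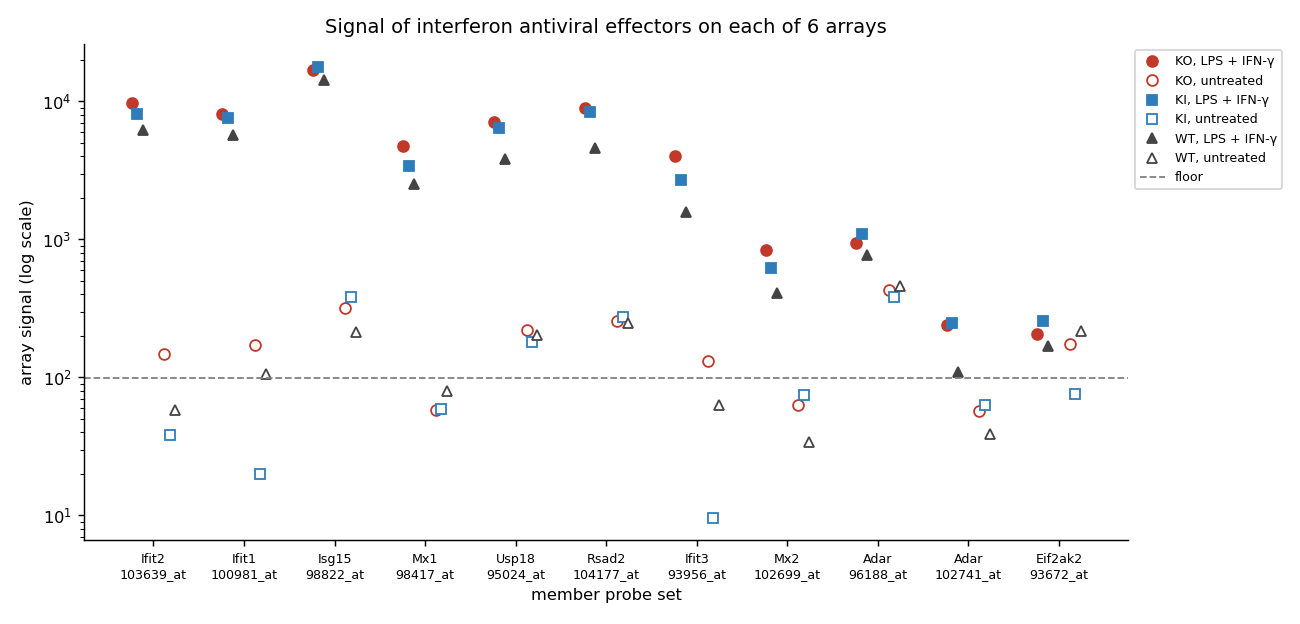
Signal of each member probe set (log axis) on the 6 arrays, with stimulated cells as filled and untreated cells as open symbols for KO (circles), KI (squares) and WT (triangles), and the floor as a dashed line. Filled and open symbols are apart for every probe set except that of Eif2ak2.

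Isg15 and Usp18 belong to the ubiquitin-like modifier system: ISG15 is attached to proteins, and USP18 removes it and also blocks the interferon receptor as feedback. Isg15 (98822_at) had signals of 16815, 17886 and 14240 in stimulated KO, KI and WT cells, against 321, 382 and 212 in untreated cells. It rose by 5.78 on the log2 scale (SE 0.15, limma adjusted p = 0.000175). Isg15 was above the floor in untreated cells of every genotype, and its change was largest in WT cells (6.07, against 5.71 in KO and 5.55 in KI cells).

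Usp18 (95024_at) had signals of 7038, 6369 and 3813 in stimulated KO, KI and WT cells, against 220, 181 and 202 in untreated cells. It rose by 4.79 (SE 0.22, limma adjusted p = 0.000968). Its untreated signals lay close together, while the stimulated WT signal was 1.85-fold below that of KO and 1.67-fold below that of KI cells.

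Rsad2 (104177_at) encodes viperin, an enzyme that makes a chain-terminating nucleotide which stops viral RNA synthesis. Its signals were 8976, 8372 and 4620 in stimulated KO, KI and WT cells, against 258, 273 and 247 in untreated cells, a rise of 4.76 (SE 0.21, limma adjusted p = 0.000934). As with Usp18, the untreated arrays were alike and the genotypes parted after stimulation, by 1.94-fold for KO over WT and 1.81-fold for KI over WT.

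Mx1 and Mx2 are dynamin-like GTPases that trap viral nucleocapsids, in the nucleus and the cytoplasm of mouse cells. RefSeq lists both loci of the C57BL/6J assembly as transcribed pseudogenes. Most inbred laboratory strains are known to lack functional Mx proteins, and the probe sets measure RNA alone. Mx1 (98417_at) had signals of 4727, 3388 and 2515 in stimulated KO, KI and WT cells, against 58.4, 58.8 and 79.2 in untreated cells that were all under the floor. It was at least 48.1-fold, 34.5-fold and 25.6-fold higher in stimulated KO, KI and WT cells, with a mean log2 change of 5.13 (SE 0.23, limma adjusted p = 0.000968). Mx2 (102699_at) had signals of 838, 621 and 409 in stimulated KO, KI and WT cells, against 62.9, 74.9 and 34.0 in untreated cells. It was at least 8.53-fold, 6.33-fold and 4.16-fold higher after stimulation (mean log2 change 2.60, SE 0.30, limma adjusted p = 0.0104). Both genes passed the filter on dim probe sets only through the stimulated arrays, so their calls are not independent of it. For both genes the stimulated signals ran KO, KI, WT from high to low.

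Eif2ak2 encodes PKR, a kinase that is activated by double-stranded RNA and shuts down translation through eIF2α, and Adar encodes the enzyme that edits adenosine to inosine in double-stranded RNA and keeps it from being sensed. They moved least. Eif2ak2 (93672_at) had signals of 206, 258 and 168 in stimulated KO, KI and WT cells, against 174, 75.6 and 216 in untreated cells. The states overlapped, and the change of 0.43 (SE 0.38) was not called by limma (adjusted p = 0.52). Within a genotype the log2 change was 0.24 in KO, at least 1.39 in KI and -0.36 in WT cells, since the untreated KI signal was under the floor.

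Adar has an interferon-driven long form and a constitutive short form in mammals, and the annotation does not say which form a probe set reads. One Adar probe set, 96188_at, had signals of 941, 1094 and 777 in stimulated KO, KI and WT cells, against 433, 383 and 456 in untreated cells. It rose by 1.13 (SE 0.21, limma adjusted p = 0.0343). Without both KO arrays this call ended (log2 change 1.14, limma adjusted p = 0.0602). The other, 102741_at, had signals of 240, 248 and 109 in stimulated KO, KI and WT cells and 56.8, 63.4 and 39.1 in untreated cells. Its change of 0.92 is a lower bound, since its untreated signals were all under the floor. It did not pass (SE 0.29, limma adjusted p = 0.115), and without both WT arrays it did (1.31, limma adjusted p = 0.0115). The stimulated arrays of either probe set were all above the untreated ones.

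In the main setting the sizes of the changes fell into an upper and a lower set, with Mx2 apart from both. The 7 probe sets of Ifit2, Ifit1, Isg15, Mx1, Usp18, Rsad2 and Ifit3 had mean log2 changes from 6.12 down to 4.58, and each neighbouring pair in this order overlapped in its range over the genotypes. Ifit3 did not overlap Mx2, which followed at 2.60, nor did Mx2 overlap the next probe set, Adar 96188_at. The Adar probe sets and Eif2ak2 overlapped in the same way. Changes of probe sets under the floor in untreated cells are understated, and their place in the order moves with the floor. Isg15 had the largest change (5.70) with the floor at the 60th percentile, against 4.96 for Ifit2 and 4.81 for Ifit1. Mx2 was under the floor on every untreated array, and its change was 1.25 with that floor, close to the 1.13 of Adar 96188_at, and 3.46 with the floor at the 20th percentile. In 5 of the 11 probe sets (Ifit2, Ifit3, Mx1, Mx2 and Adar 102741_at) the WT change is a lower bound, and which genotype changed least cannot be told. Of the other 6, the change was smallest in WT cells for 4 (Usp18, Rsad2, Adar 96188_at and Eif2ak2), in KO cells for Ifit1 and in KI cells for Isg15.

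**Figure D3:**
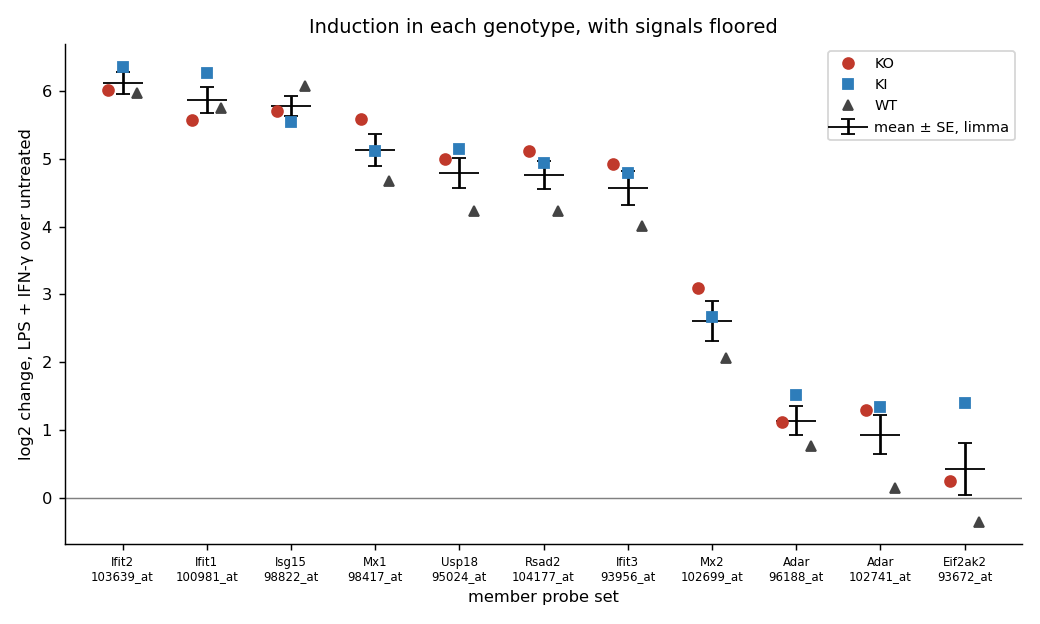
Log2 change after LPS with interferon-γ for each member probe set in KO, KI and WT cells, with the limma mean over genotypes and its SE in black. The 7 probe sets from Ifit2 to Ifit3 lie above 4, Mx2 between 2.06 and 3.09, and Adar and Eif2ak2 below 1.52. Changes that start at the floor are drawn at their lower bound.

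The series title asks how induction differs among the genotypes. In the additive fit, where each difference is a mean over both states, 0 of the 11 member probe sets passed for KO over WT, as did 0.0% of all probe sets. The log2 differences ran from -0.01 to 0.88 with a median of 0.51, against -0.05 over all probe sets, and limma adjusted p ran from 0.451 to 1. Those of Ifit1 (0.60, SE 0.23), Ifit2 (0.63, SE 0.19) and Ifit3 (0.88, SE 0.31) had an unadjusted limma p under 0.05, which is 3 of 11 where the share over all probe sets was 10.1%. For KI over WT, 0 of the 11 passed and 0.0107% of all probe sets did. Isg15 alone had an unadjusted limma p under 0.05 (log2 difference 0.59, SE 0.18, adjusted p = 0.238), where 17.1% of all probe sets had one. For KI over KO, 0 of the 11 passed and 0.0% of all, with log2 differences from -0.49 to 0.17, and 0 had an unadjusted p under 0.05, against 7.56% of all. SEs of single members in these contrasts ran from 0.18 to 0.47, and a p over the threshold does not show that the genotypes were alike.

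Within stimulated cells, which have 1 array per genotype and no test, the signals of all 11 member probe sets were higher in KO than in WT cells, where 45.9% of all tested probe sets were. The fold of KO over WT ran from 1.18 for Isg15 to 2.53 for Ifit3, with a median log2 difference of 0.88 against 0.00 over all probe sets. It was at least 2-fold for Ifit3, Adar 102741_at (2.21) and Mx2 (2.05), which is 3 of 11 against 2.55% of all probe sets. The other 8 lay between 1.18 and 1.94, with Rsad2, Mx1 and Usp18 (1.94, 1.88 and 1.85) above Ifit2, Ifit1, Eif2ak2, Adar 96188_at and Isg15 (1.57, 1.43, 1.22, 1.21 and 1.18).

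The signals of all 11 were also higher in stimulated KI than in stimulated WT cells, where 39.9% of all probe sets were, by 1.26-fold for Isg15 to 2.28-fold for Adar 102741_at. Only Adar 102741_at reached a 2-fold difference, 1 of 11 against 1.9% of all probe sets. Its stimulated WT signal of 109 was close to the floor of 98.2, and the other Adar probe set, 96188_at, was 1.41-fold higher in KI cells. Rsad2, Ifit3 and Usp18 came after Adar 102741_at at 1.81-fold, 1.72-fold and 1.67-fold. Both comparisons use the same WT array. KI signals were above KO signals for 4 of the 11 (42.1% of all probe sets), namely Isg15, Eif2ak2 and both Adar probe sets, and the fold of KI over KO ran from 0.68 for Ifit3 to 1.25 for Eif2ak2. These counts moved with the processing. With each array centred on its median, 6 and 4 of the 11 were at least 2-fold above WT in stimulated KO and KI cells, and 7 were above KO in KI cells. With log2(signal + 50) the 2-fold counts were 1 and 0, and with the floor at the 60th percentile they were 2 and 0, with 9 of 10 tested probe sets above WT in KO cells.

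**Figure D4:**
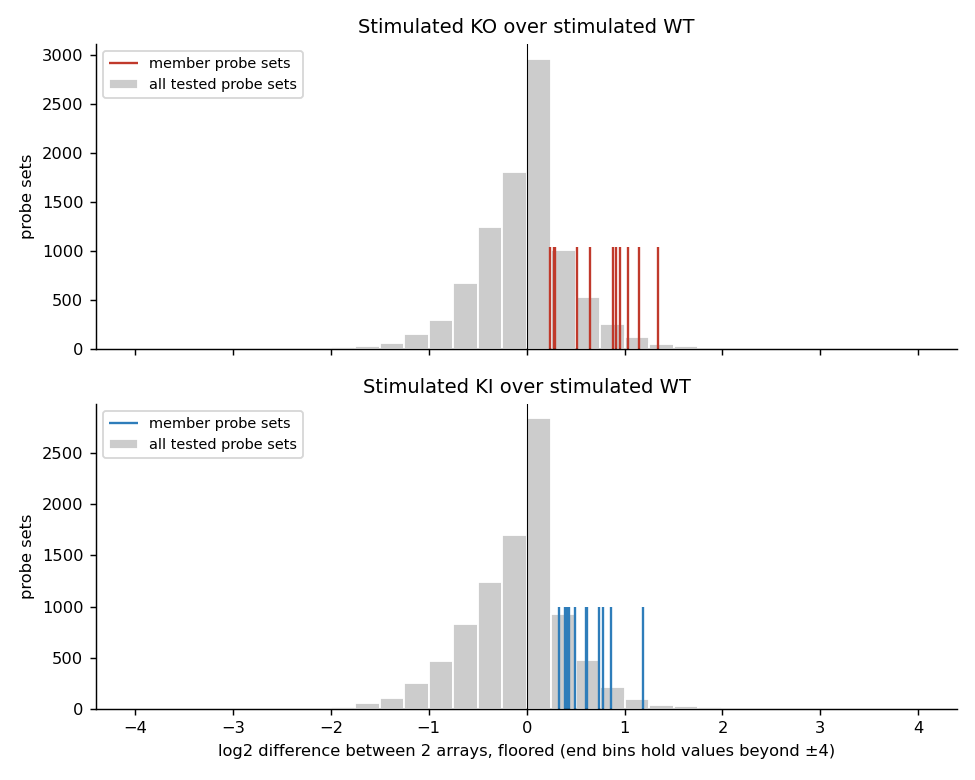
Log2 difference of stimulated KO (upper panel) and stimulated KI (lower panel) over stimulated WT cells for 9337 probe sets in grey, with the 11 member probe sets as vertical lines. The bin right of 0 also holds probe sets at the floor on both arrays. All member lines lie right of 0, from 0.24 to 1.34 for KO and from 0.33 to 1.19 for KI.

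In untreated cells the differences went both ways. Where both arrays were above the floor, untreated signals of KO over WT ran from 0.81-fold for Eif2ak2 to 1.61-fold for Ifit1 (6 probe sets), and those of KI over WT from 0.84-fold for Adar 96188_at to 1.80-fold for Isg15 (4 probe sets). With KI under the floor and WT above it, KI over WT was at most 0.46-fold for Eif2ak2 and at most 0.93-fold for Ifit1. The median untreated log2 difference with signals raised to the floor was 0.06 for KO over WT and 0.00 for KI over WT, with 3 of the 11 probe sets under the floor on all untreated arrays. Among untreated cells, Ifit1, Ifit2 and Ifit3 had their highest signals in KO cells, and their KI signals of 20, 38.3 and 9.60 lay under the floor.

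The log2 changes with stimulation were also set side by side. Of the 6 probe sets above the floor in untreated KO and WT cells, Rsad2, Usp18, Eif2ak2 and Adar 96188_at changed more in KO than in WT cells by 0.90, 0.76, 0.60 and 0.35, while Ifit1 and Isg15 differed by -0.17 and -0.36. The KO change exceeded the WT change by 1 or more for 2 of the 11, Adar 102741_at (1.15) and Mx2 (1.04), against 5.31% of all probe sets. Both were under the floor on every untreated array, so that these values are the stimulated differences given above and no separate measure of induction. The count was between 1 and 4 under other settings. In KI over WT cells the difference reached 1 for Eif2ak2 (at least 1.75) and, again as its stimulated difference alone, for Adar 102741_at (1.19), against 6.75% of all. In KI over KO cells it did so for Eif2ak2 alone (at least 1.15), against 5.08%. The values of Eif2ak2 are lower bounds because its untreated KI signal was under the floor.

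Markers of other cells differed between the stimulated arrays. The summed signal of 8 macrophage markers, all above the floor, was 39872, 43591 and 51602 in stimulated KO, KI and WT cells. That of 6 mesothelial and fibroblast markers, of which 3, 3 and 4 were above the floor, was 1263, 1529 and 4103. That of 6 neutrophil markers, with 2, 1 and 2 above the floor, was 717, 455 and 1548, and that of 5 B cell markers, with 5, 5 and 4 above it, was 1548, 908 and 1561. These sums were highest on the stimulated WT array, on which the members were lowest, although the B cell sums of KO and WT cells were close. The sums are weighted by single bright genes. Of the WT neutrophil sum, 1073 came from S100a8. Of the WT mesothelial and fibroblast sum, Col1a1 gave 637, Col3a1 276, Upk3b 262, Msln 30.9 and Krt19 17.1, and the rest came from Dcn. In stimulated KO, KI and WT cells, Cd14 had 2845, 2642 and 7915 and Csf1r 1799, 2901 and 4787. Fcgr1 went the other way with 4638, 4686 and 3863. Of the 8 macrophage markers, 3 and 1 were higher in stimulated KO and KI than in WT cells. The mesothelial and fibroblast sum in untreated KO, KI and WT cells was 1399, 1444 and 2942, and the neutrophil sum was 699, 808 and 1215. There the B cell sum was 3380, 1283 and 3562, and the macrophage sum 56723, 59426 and 57466. Mast cell and eosinophil markers, mostly under the floor, summed to 174, 198 and 180 in stimulated cells. The 4 measured markers of plasmacytoid dendritic cells, a main source of type I interferon, summed to 7578, 9225 and 6232, mostly from Irf8, which macrophages also express. None of these markers had a signal of exactly 0, and their part in the differences between genotypes was not tested.

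The rest of the interferon pathway was described from lists of ligands, receptors, signalling proteins, factors, sensors and effectors. Of 60 listed genes with a probe set, 56 were above the floor on at least 1 array, and of these 24 rose and 1 fell. Of all tested probe sets 5.08% rose and 6.04% fell. With 1 probe set per gene, 24 listed genes rose and 1 fell, where 396 of all 6765 rose and 518 fell. These shares are also the background of the counts of single lists below. The ligands gave no call: 9 of 13 listed had a probe set, 6 were tested, and their log2 changes lay between -0.45 and 0.57 with limma adjusted p from 0.313 to 0.897. Their signals were low, at most 464 (Ifnab in untreated WT cells). The probe sets of Ifna2, Ifna4, Ifna5, Ifna9 and Ifnab carry the suffix _f_at, and whether each reads 1 gene alone was not examined. The lack of a call does not show that the ligands were unchanged. Ifnb1, interferon-β, named here after its values were seen, had signals of 114, 46.9 and 123 in stimulated KO, KI and WT cells, against 78.5, 9.50 and 243 in untreated cells.

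Of the 4 receptor subunits, Ifngr1, the ligand-binding chain for interferon-γ, fell by 1.75 on the log2 scale (SE 0.21, limma adjusted p = 0.0116). Ifngr2, Ifnar1 and Ifnar2 did not pass (0.62, -0.17 and 0.13, limma adjusted p = 0.0698, 0.714 and 0.873). Among 8 tested signalling genes 5 rose, led by the feedback inhibitors Socs1 (4.29) and Socs3 (3.88), the kinase Jak2 (2.14) and the phosphatase Ptpn6 (1.45), with limma adjusted p from 0.000934 to 0.00998. The kinases Jak1 and Tyk2 and the signalling inhibitor Pias1 did not (0.73, -0.20 and 0.05).

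Of 8 listed interferon regulatory factors 6 were measured, and 4 rose. Irf7, which amplifies the interferon loop, rose by 4.12, Irf1 by 3.35, Irf8 by 2.09 and Irf5 by 1.01. Their limma adjusted p ran from 0.000444 to 0.0121. Irf3, which acts before interferon is made, and Irf4 did not pass (-0.57 and -0.67, limma adjusted p = 0.305 and 0.237). Of 19 listed sensors and adaptors only 4 were measured. Among these Ifih1, the RNA sensor MDA5, rose by 3.81 (SE 0.16, limma adjusted p = 0.000737). Its stimulated signals were 5173, 5253 and 2913 in KO, KI and WT cells. The kinases Ikbke and Tbk1 and the receptor Tlr7 did not pass (1.07, 0.50 and 0.07, limma adjusted p = 0.0627, 0.177 and 0.844).

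Of 40 listed other antiviral effectors 19 were measured, and 11 of these rose, with a median change of 1.54 over the 19. The largest were those of the GTPases Gbp2 (5.78), Gbp3 (4.67) and Ifi47 (4.07) and of the exonuclease Isg20 (3.80), with limma adjusted p from 0.000175 to 0.00285. All 3 measured genes of ISG15 conjugation rose: Uba7, its activating enzyme, by 2.25, Ube2l6, its conjugating enzyme, by 1.76, and Trim25, a ligase, by 1.54. Isg15 itself and Usp18, which removes it, are given above. Of 6 measured partners and targets of PKR (9 listed), 1 rose, the phosphatase subunit Ppp1r15a that reverses eIF2α phosphorylation (2.54, SE 0.42, limma adjusted p = 0.0269). Adarb1, an editing enzyme related to Adar, did not pass (-0.34, limma adjusted p = 0.448).

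**Figure D5:**
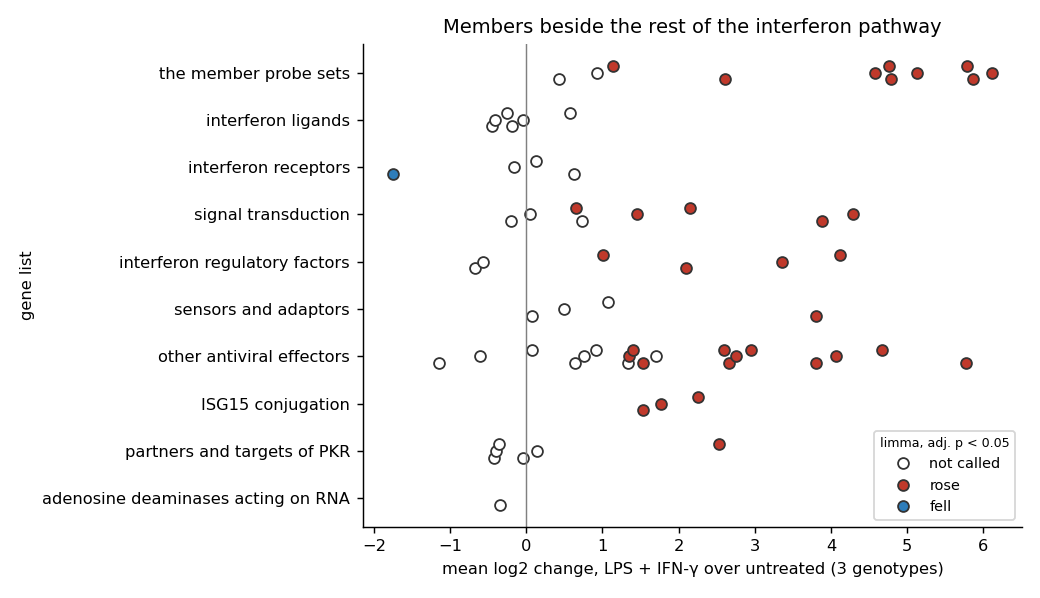
Mean log2 change after LPS with interferon-γ for the 11 member probe sets and for the tested genes of 9 lists, 1 point each, filled red where the gene rose and blue where it fell in the limma fit at an adjusted p of 0.05. Ligands lie between -0.45 and 0.57, and the only gene that fell is Ifngr1.

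The members were compared with each other and with the remaining genes by the shape of their profile over the 6 arrays. Pearson's r of a member probe set with the mean of the other members lay between 0.979 and 0.9998 for 9 probe sets, 0.825 for Adar 102741_at and 0.519 for Eif2ak2. Among 3412 other named genes with a range of at least 1 on the log2 scale, the 8 most like the members' mean were Marchf5, Traf1, Cxcl10, Rnf19b, Slfn4, Ifih1, Irf7 and Cmpk2, with r from 0.9971 to 0.9996. Cmpk2, a mitochondrial nucleotide kinase, had signals of 2729, 2291 and 1101 in stimulated KO, KI and WT cells and was under the floor in untreated cells. All 8 had a lower stimulated signal in WT than in KO and KI cells, a feature of the members' mean that the choice by likeness carries over. The correlations describe 6 arrays in 2 states that all genes share, and the step between the states makes up most of each profile.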

How the data were processed

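Signal intensities of 12488 probe sets on 6 single-colour Affymetrix arrays were deposited as 1 table, made by the authors with MAS5 per the submitters' processing notes. Biotin-labelled cRNA had been prepared from Trizol-extracted total RNA, per the labels' protocols. Not given in the sources used here were its version, scaling target and detection calls. The number of arrays, 1 per group, limits the precision of every value.

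The 66 control probe sets were left out. Intensities were rescaled to equal trimmed means (2% trimmed at either end), floored at the 40th percentile and then put on the log2 scale. Changes of probe sets at the floor are understated, and folds against it are given as "at least". Names came from the platform annotation: of 12422 probe sets, 10833 had 1 symbol, 396 several and 1193 none, and through gene identifiers 0 symbols changed against RefSeq (GRCm38.p6).

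R 4.3.3 and limma 3.58.1 were used. Stimulation (genotype as a block) and genotype contrasts (state as a block) were fitted over all 6 arrays leaving 2 residual degrees of freedom, with eBayes (trend option) and Benjamini-Hochberg adjustment over 9337 probe sets at 0.05. The fit was tested on simulated data with independent normal noise and no floor, so the effect of the floor on it was not tested. Changes within a genotype or state are given by size, with no test. Members and lists were chosen with earlier results of these data known. Named genes were all members, up to 4 genes per list with the largest changes past the test, all that did not pass where at most 3 did not, and the 8 genes most like the members' mean profile; listed genes are represented by their brightest probe set. A set of 11 alternative settings was run; their use on stimulated differences was added after seeing the data.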

Additional observations from a re-analysis of the deposited data

Results flagged for a closer look

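The log2 change with stimulation had opposite signs in a pair of genotypes for 1 member and 7 other named genes. A change that starts or ends under the floor is given as a bound. Each value comes from single arrays, and the differences were not tested. For Eif2ak2 (PKR) the change was 0.24 in KO, at least 1.39 in KI and -0.36 in WT cells, a difference of 0.60 for KO minus WT and of at least 1.75 for KI minus WT. Its untreated KI signal was under the floor. Ifnar1, a chain of the type I interferon receptor, changed by -0.68 in KO, -0.28 in KI and 0.46 in WT cells (differences from WT of -1.14 for KO and -0.75 for KI). Ifnar2, the other chain, changed by -1.12 in KO, 1.23 in KI and 0.28 in WT cells, a difference of -1.40 for KO minus WT and of 2.35 for KI minus KO. Irf3 changed by 0.07 in KI cells, against -0.69 in KO and -1.10 in WT cells (KI minus KO 0.75, KI minus WT 1.17). Tyk2 changed by 0.35 in KI cells, against -0.48 in KO and -0.48 in WT cells (KI minus KO 0.82, KI minus WT 0.83). Tlr7, under the floor in untreated KO and in stimulated KI and WT cells, changed by at least 0.56 in KO, by -0.05 or less in KI and by -0.30 or less in WT cells. The difference was at least 0.86 for KO minus WT and -0.60 or less for KI minus KO. Ifnb1 (interferon-β), under the floor in untreated KO cells, changed by at least 0.22 in KO and by -0.98 in WT cells, a difference of at least 1.19, and was under the floor in both states in KI cells. Pias1 changed by 0.22 in KO, 0.04 in KI and -0.11 in WT cells (KO minus WT 0.33, KI minus WT 0.15). None of the 8 genes passed the limma test of stimulation.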

How the results depend on the processing

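All values rest on 6 arrays without replicates, and signals under the floor carry no order. Stimulated and untreated arrays were paired by genotype in the fit, and the labels hold no replicate numbers to pair by. Ifit1, Ifit2 and Isg15 passed the stimulation test under all 11 alternative settings. With no filter on dim probe sets the number of members that rose was 3 in place of 9, and of pathway genes 7 in place of 24 with 0 that fell. The members' log2 changes were the same in that setting. The limma adjusted p was 0.0535 for Mx1, 0.0568 for Rsad2, 0.0574 for Usp18, 0.0583 for Ifit3 and 0.112 for Mx2. Centring each array on its median, which moved the median change of all probe sets to -0.0044 from -0.12 and split all calls into 598 higher and 364 lower in place of 474 and 564, gave 6 members at least 2-fold above WT in stimulated KO cells (3 in the main setting), 4 in stimulated KI cells (1), 7 above KO in stimulated KI cells (4) and 4 with a KO minus WT difference in induction past 1 (2). With the floor at the 20th percentile 1 member passed that size for KO minus WT and 4 for KI minus KO (2 and 1 in the main setting). With the floor at the 60th percentile 10 member probe sets were tested, 0 passed in induction for KI minus WT or KI minus KO, 0 were 2-fold above WT in stimulated KI cells, and 9 and 10 were above WT in stimulated KO and KI cells. With log2(signal + 50) the induction counts were 1 for KO minus WT and 3 for KI minus KO, stimulated 2-fold counts over WT were 1 for KO and 0 for KI, and 2 pathway genes fell; 669 and 972 of all probe sets were then called. With 1 probe set per gene, the dimmer Adar probe set dropped out, leaving induction counts of 1 for KO minus WT and 1 for KI minus WT and 0 members 2-fold above WT in stimulated KI cells. Leaving out 1 genotype gave 8 to 10 members that rose, 1 to 2 pathway genes that fell, and gave changes of Eif2ak2 between -0.057 (without KI) and 0.82 (without WT) that were called in neither case. Adar 96188_at lost its call without KO (adjusted p = 0.0602) and with no filter (0.155), and the other Adar probe set was called with the 20th percentile floor, with log2(signal + 50) and without WT (adjusted p from 0.0115 to 0.044). Where no construction above shows it, the cause was not tested.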

Other observations

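Ifi202b, an interferon-inducible p200 gene on the list of other effectors, was singled out after its values were seen. Its signals were 3726, 1.0 and 3719 in stimulated KO, KI and WT cells, against 432, 7.10 and 934 in untreated cells. KI cells were under the floor in both states, while Ifi204 of the same family had 6534, 6638 and 5261 in stimulated and 1241, 1041 and 697 in untreated KO, KI and WT cells. Expression of Ifi202b is known to differ between inbred mouse strains, and all samples here carry the strain label C57BL/6. The label is the same for all genotypes, so it does not tell whether, or in which of them, the background differs. The part of strain background in the members' differences between genotypes was not tested.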
